A study of Mus musculus with 72 samples.

Results

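Binding of IRF8 in resting B cells was described from 4 of the 64 deposited peak lists of the study, 2 of wild-type (WT) and 2 of double-knockout (DKO) cells. They held 886 and 868 peaks in WT replicates 1 and 2, and 370 and 284 peaks in DKO replicates 1 and 2. Peaks of the 4 lists that shared at least 1 bp were joined into 1108 sites, and a site was placed by the lists that called it. Both WT lists and no DKO list called 328 sites (29.6%), which are named WT-only sites here. All 4 lists called 215 sites (19.4%), which are named shared sites. Both DKO lists and no WT list called 7 sites. The other sites were called by both WT lists and 1 DKO list (132 sites), by 1 WT list alone (360), by 1 DKO list alone (23) or by other mixtures (43).

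IRF8 is a transcription factor of the interferon regulatory factor family that recognizes GAAA elements in DNA. Alone it binds weakly. With a partner of the same family it binds paired GAAA elements, known as the interferon-stimulated response element (ISRE), and with the ETS family factors PU.1 or SpiB it binds a composite of an ETS core and a GAAA element, the ETS-IRF composite element (EICE). In B cells it takes part in lineage commitment, receptor signalling, antigen presentation and the germinal centre response. HMGN1 and HMGN2 are small nucleosome-binding proteins found throughout active chromatin, without a DNA sequence of their own.

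The resting B cells were splenic cells of C57BL/6 mice. WT cells were Hmgn1+/+n2+/+ and DKO cells were Hmgn1-/- n2-/-, with no treatment named in the labels. Each genotype had 2 biological replicates, and whether these were separate animals is not stated. The comparison asks whether IRF8 finds the same sites when both HMGN variants are absent. Each list was called separately against input DNA, and the labels name 1 B cell input for WT and 1 for DKO. The lists hold no reads over Hmgn1 or Hmgn2 that could check the deletion. No IRF8 list had a peak within 5000 bp of Hmgn1 (chr16:96342225-96349336), Hmgn2 (chr4:133520653-133524565), Irf8 itself, Spi1 or Irf4. Of 5 B cell marker genes, Pax5 had an IRF8 peak in all 4 lists, Ebf1 had one in both WT lists and no DKO list, and Cd79a, Cd79b and Cr2 had none in any list. None of 6 T cell, 6 myeloid and 4 erythroid defining genes had one of IRF8 in any list, while Cd2, Mpeg1 and Mrc1 of longer T cell and myeloid lists did.

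The sequences under the summits are shown first, because they hold the DNA that IRF8 is known to bind. Each is the plus strand of the mm9 genome in the 101 bp around the strongest summit of the site. Capitals mark the EICE, searched on both strands as GGAA, any 2 bases and GAAA, so that a match on the minus strand starts with TTTC and ends with TTCC. Named by the closest protein-coding start, the first 4 lines come from shared sites and the others from WT-only sites.
Lyn, chr4:3651985-3652085: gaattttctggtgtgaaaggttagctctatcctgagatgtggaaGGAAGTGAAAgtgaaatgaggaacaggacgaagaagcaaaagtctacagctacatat
Rnd3, chr2:50697594-50697694: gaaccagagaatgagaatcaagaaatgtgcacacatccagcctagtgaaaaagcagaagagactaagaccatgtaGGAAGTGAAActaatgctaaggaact
Pax5, chr4:44684027-44684127: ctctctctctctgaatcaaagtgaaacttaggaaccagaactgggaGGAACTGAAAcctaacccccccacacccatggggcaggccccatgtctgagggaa
Bcl2, chr1:108449560-108449660: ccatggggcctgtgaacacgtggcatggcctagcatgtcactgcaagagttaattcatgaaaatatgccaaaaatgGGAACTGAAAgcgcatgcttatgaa
Parp11, chr6:127397804-127397904: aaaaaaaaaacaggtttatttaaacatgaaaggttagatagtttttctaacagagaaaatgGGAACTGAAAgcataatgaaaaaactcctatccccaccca
Usf1, chr1:173342378-173342478: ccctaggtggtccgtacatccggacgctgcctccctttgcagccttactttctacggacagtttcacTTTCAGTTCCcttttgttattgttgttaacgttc
Ssr2, chr3:88397334-88397434: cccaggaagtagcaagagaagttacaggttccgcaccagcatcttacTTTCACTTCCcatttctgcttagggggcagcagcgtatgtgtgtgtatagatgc
Gmfb, chr14:47427744-47427844: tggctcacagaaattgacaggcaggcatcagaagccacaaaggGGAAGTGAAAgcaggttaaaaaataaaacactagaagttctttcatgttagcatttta
Cd2, chr3:101074890-101074990: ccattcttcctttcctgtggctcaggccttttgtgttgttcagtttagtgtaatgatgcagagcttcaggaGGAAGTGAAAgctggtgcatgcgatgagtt
Bank1, chr3:135910457-135910557: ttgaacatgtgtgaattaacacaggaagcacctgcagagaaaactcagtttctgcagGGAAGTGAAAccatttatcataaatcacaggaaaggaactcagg

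The same letters of the EICE occurred in both classes. GGAAGTGAAA stood under the shared sites of Lyn and Rnd3 and under the WT-only sites of Ssr2, Gmfb, Cd2 and Bank1, and GGAACTGAAA under Pax5, Bcl2, Parp11 and Usf1. Within 100 bp of the summit the EICE was found at 138 of 328 WT-only sites (42.1%) and at 97 of 215 shared sites (45.1%), with exact binomial 95% intervals of 36.7 to 47.6 and 38.3 to 52. At positions 5000 bp from the same summits it was found at 3.05% and 0.93%, and 1.58% of 45962 windows of the same length at annotated transcription starts held it. The match lay close to the summit, at a median distance of 12 bp at WT-only and 13 bp at shared sites, and within 25 bp at 76.1% and 76.3% of the sites that had one. The middle bases GT were the most frequent, in 39% of the matches at WT-only sites and 48% at shared sites.

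The strongest shared sites were of another kind. Their summits lay in arrays of GAAA repeated every 6 bp, shown here with each GAAA of the array in capitals, read as TTTC where the array lies on the minus strand.
Mtap4, chr9:109856131-109856231: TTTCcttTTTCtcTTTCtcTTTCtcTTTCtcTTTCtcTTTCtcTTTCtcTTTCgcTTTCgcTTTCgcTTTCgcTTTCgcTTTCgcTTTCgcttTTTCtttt
Trim30c, chr7:111553212-111553312: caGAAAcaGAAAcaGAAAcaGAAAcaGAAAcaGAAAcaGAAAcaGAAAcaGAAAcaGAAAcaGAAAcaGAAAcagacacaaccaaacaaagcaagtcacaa
2310014L17Rik, chr7:13522819-13522919: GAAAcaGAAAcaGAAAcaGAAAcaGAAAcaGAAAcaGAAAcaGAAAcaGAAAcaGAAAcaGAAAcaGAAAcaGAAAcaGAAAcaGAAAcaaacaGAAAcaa
Speer2, chr16:69078502-69078602: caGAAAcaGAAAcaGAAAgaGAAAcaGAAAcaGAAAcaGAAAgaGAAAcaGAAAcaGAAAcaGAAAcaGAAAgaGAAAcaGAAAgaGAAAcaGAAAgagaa

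These 4 sites had the highest mean −log10 q of all shared sites, and all 4 lists called them with no peak of IKAROS, ETS1, PAX5 or OCT2 in both WT lists. The ISRE was searched on either strand in the same window as GAAA, any 2 bases and GAAA, and matched 14, 19, 22 and 30 times at the sites named by Mtap4, Trim30c, 2310014L17Rik and Speer2. The Speer2 site lay 782179 bp from the start that names it. A match of the ISRE motif can overlap the next one and an EICE. Sites with 3 or more matches, called GAAA arrays here, made up 32 of 215 shared sites (14.9%) and 7 of 328 WT-only sites (2.13%). Of the windows at transcription starts 0.0218% held such an array, and of the positions 5000 bp from the 1108 summits 0.271% did. Arrays of this kind occur in many copies, and reads from one copy can be placed on another, so the source of the reads at a single array is uncertain. At least 1 ISRE was found at 22.3% of shared sites, 15.2% of WT-only sites and 2.05% of start windows. The ETS core GGAAGT, which can be part of an EICE, was found at 47.9%, 45.7% and 17.3%, and the RUNX motif AACCACA at 12.1%, 11.3% and 2.92%. The AP-1 motif TGANTCA was found at 7.44%, 9.45% and 4%, and the octamer ATGCAAAT at 2.79%, 3.35% and 0.781%. At positions 5000 bp from the summits of shared and WT-only sites, the ISRE was found at 5.12% and 4.27%, the ETS core at 13% and 10.4%, the RUNX motif at 1.86% and 3.35%, the AP-1 motif at 2.33% and 6.4%, and the octamer at 1.86% and 1.22%.

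IRF8 had fewer peaks in both DKO lists than in either WT list. On the log2 scale of peak number + 1 the difference of DKO from WT was −1.43 ± 0.16 (SE, n = 2 and 2), so that WT lists held 2.7 times as many peaks (limma over 16 antibodies, Benjamini-Hochberg adjusted p = 0.00664). Of the 16 antibodies of the study, 56.2% passed this test with fewer peaks in DKO and 18.8% with more. The call was lost when either WT replicate was left out (adjusted p = 0.0722 without WT replicate 1 and 0.0697 without WT replicate 2). An exact permutation test of 2 against 2 cannot give a p below 0.33. WT-only sites were about as frequent for IRF8 (29.6%) as for the other B cell factors, at 28.2% of the sites of IKAROS, 33.9% of ETS1, 32.3% of PAX5, 37.1% of OCT2, and 30.2% of these 4 together.

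**Figure D1:**
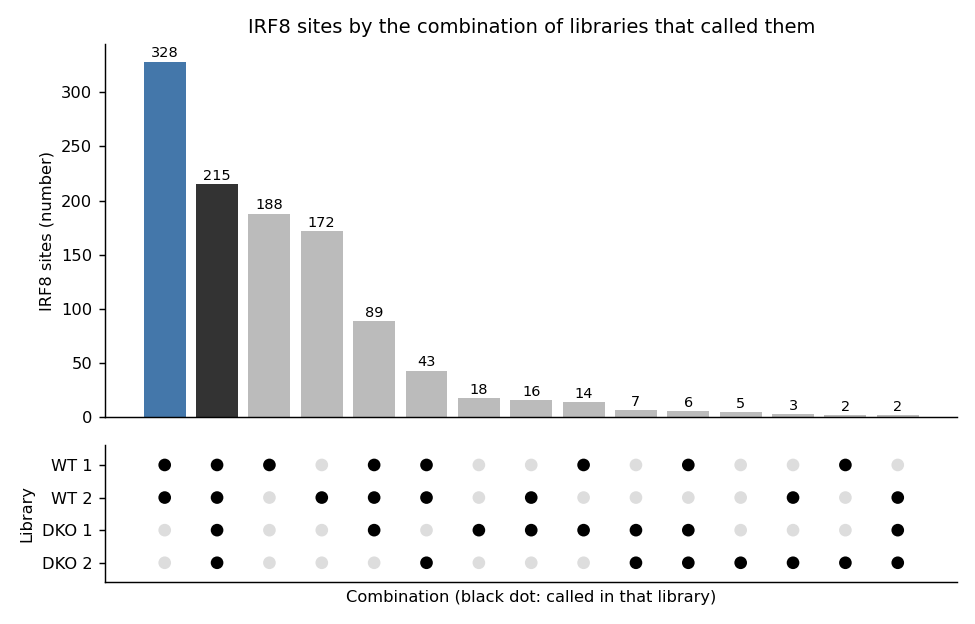
Number of IRF8 sites (y axis) for each combination of the 4 libraries that called them, with black dots for the libraries of each combination. The 328 sites of both WT libraries alone (blue) and the 215 sites of all 4 (black) are the largest groups, and 7 sites had both DKO libraries alone.

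The lists of a genotype did not repeat all of each other. Of the peaks of WT replicate 1, 76.3% overlapped a peak of WT replicate 2 and 36.7% a peak of DKO replicate 1. Of the peaks of DKO replicate 1, 88.1% overlapped a peak of WT replicate 1 and 62.7% a peak of DKO replicate 2, and of the peaks of DKO replicate 2, 94% overlapped WT replicate 1. The class sizes changed with how many peaks were taken from each list. With the 284 peaks of lowest p taken from each list, there were 27 WT-only sites, 29 sites in both DKO lists and no WT list, and 145 shared sites. Lists of equal length bring the numbers of WT-only and DKO-only sites close together whatever the binding. Their likeness here therefore says nothing about a change in binding.

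Which WT sites were called in DKO followed how strong they were in WT. The 675 sites of both WT lists were ordered by their mean −log10 p in WT and split into 5 groups of 135. From the weakest to the strongest group, the share with no DKO call went through 79.3%, 69.6%, 57.8%, 34.1% and 2.22%, and the share called in both DKO lists through 7.41%, 10.4%, 17%, 37.8% and 86.7%. The median fold enrichment of WT-only sites, the ratio of reads stacked at the summit, as scaled by the caller, to the local background with 1 added to each, was 7.16 and 6.63 in the WT lists, against 11.9 and 10.9 at shared sites. The median number of reads at the summit was 30 and 32 at WT-only sites and 49 and 54 at shared sites. The lowest −log10 q of a WT-only site was 2.11 in WT replicate 1 and, taken separately, 2.61 in WT replicate 2. The smallest −log10 p in a list was 6.04 and 6.07 in WT and 7.14 and 7.49 in DKO.

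**Figure D2:**
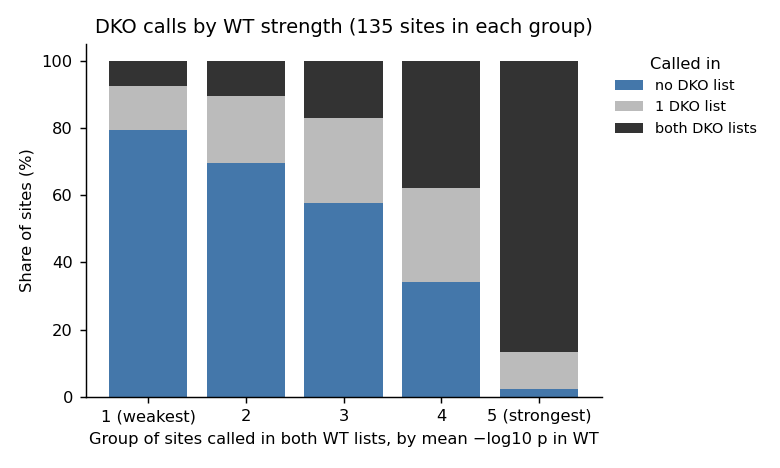
Share of the sites of both WT lists (y axis, %) that no DKO list, 1 DKO list or both DKO lists called, in 5 groups of 135 sites from the weakest to the strongest by mean −log10 p in WT (x axis). The share with no DKO call is 79.3% in the weakest group and 2.22% in the strongest.

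The 10 strongest WT-only sites lay near genes of several kinds, and 7 of them had an EICE. The first was in an intron of Parp11, which encodes an ADP-ribosyltransferase, 996 bp from its start. It had a fold enrichment of 15.4 and 11.9 in the WT lists, with 57 and 51 reads at the summit, and peaks of IKAROS and ETS1 in both of their WT lists and in neither DKO pair. Usf1, a basic helix-loop-helix factor, had a WT-only site in an intron 616 bp from its start, with fold enrichments of 13.3 and 12.2. Zeb2, a zinc finger repressor, had one 1102 bp from a start, with 12.5 and 11.9, and with IKAROS and ETS1 in WT. Pik3ap1, which encodes the B cell adaptor BCAP that links the antigen receptor to PI3-kinase, had an intronic site of 12.8 and 8.4. The site 16862 bp from the start of Cd2, an adhesion receptor of lymphocytes, had 10.9 and 8.48. The others of the 10 strongest were named by Ssr2, Prlr (102531 bp from its start), Gmfb, Pygb and Setdb2, with WT fold enrichments between 7.33 and 13.5. None of these 10 sites had a peak of IKAROS, ETS1, PAX5 or OCT2 in both DKO lists of that factor.

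Shared sites beyond the arrays included known B cell genes. Lyn encodes a Src family kinase that both starts and restrains antigen receptor signalling. Its intronic site, 46761 bp from the start, had 121 and 111 summit reads in WT and 104 and 106 in DKO. The fold enrichment there was 44 and 35.3 in WT and 17.8 and 15.6 in DKO, with no overlap between genotypes. Its difference on the log2 scale was −1.24 ± 0.23 (SE, n = 2 and 2, limma adjusted p = 0.00253). The site 306986 bp from Rnd3 had 18.1 and 16 in WT and 15.4 and 12.9 in DKO, a difference of −0.27 ± 0.23 that did not pass the test (limma adjusted p = 0.352). Next in strength to the 4 arrays printed above was a site 35215 bp from Atp1b3, a subunit of the sodium pump, with 24.8 and 19.4 in WT and 26 and 22.3 in DKO, where the groups overlapped. Acoxl, an acyl-CoA oxidase-like gene, had an intronic site with 22.6 and 23.5 in WT and 9.07 and 11 in DKO, and IKAROS and ETS1 in both genotypes (difference −1.20 ± 0.23, limma adjusted p = 0.00255, and 0.0726 after each library was centred on its median). The remaining sites of the 10 strongest lay near Stoml1 and near Clic5, the latter also a GAAA array with 17 ISRE matches, and neither passed the test.

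Fold enrichment at shared sites was lower in DKO as a group. Its median was 11.9 and 10.9 in WT and 8.12 and 7.1 in DKO over the 215 sites, and the median difference on the log2 scale was −0.48. At 137 sites (63.7%) both DKO values lay below both WT values, and at 20 both lay above. Tested site by site, 78 sites (36.3%) were lower in DKO and 4 (1.86%) higher (limma, Benjamini-Hochberg over the 215 sites). After each library was centred on its own median, 18 sites were lower and 34 higher. No site passed in either direction without DKO replicate 2, where 69 were lower and 7 higher at an unadjusted p under 0.05. Every shared site had to be strong enough to be called in DKO, so these values describe sites that were kept.

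**Figure D3:**
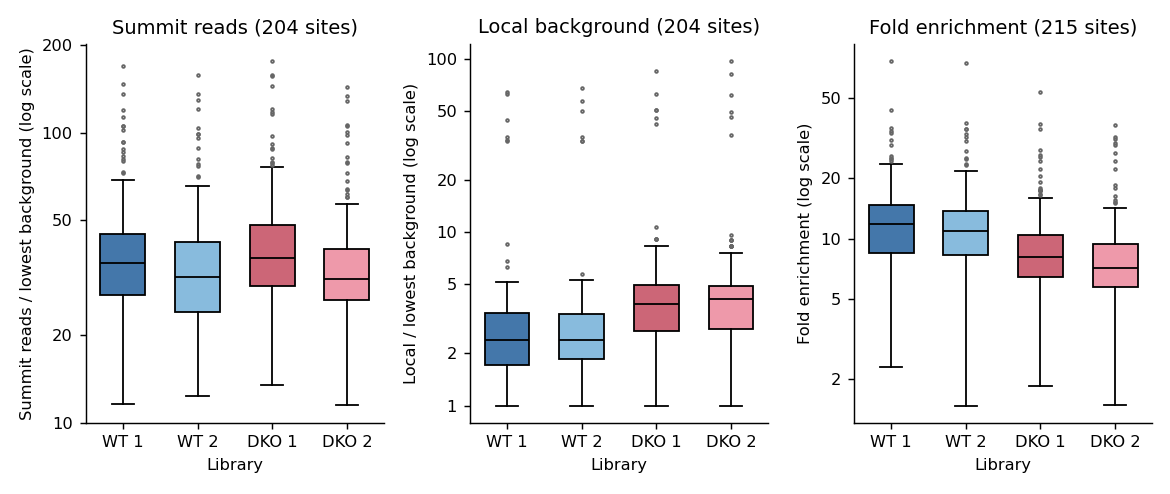
Scaled summit reads (left, 204 sites), local background (middle, 204 sites), each over the lowest background of its library, and fold enrichment (right, 215 sites) at the shared IRF8 sites in the 4 libraries, all on log axes. Lines are medians, boxes quartiles, whiskers reach 1.5 box lengths and points lie beyond. Summit reads overlap with medians of 35.5, 31.9, 37.1 and 31.4 in WT 1, WT 2, DKO 1 and DKO 2, the local background is higher in DKO, and fold enrichment is lower.

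The numerator and the denominator of fold enrichment moved differently. The caller's formulas give both from the fold enrichment and p of a summit, and 98.4% to 99.6% of the summits of each list were solved to a whole number of reads. In DKO replicate 2 these values were met with summit reads scaled by 0.876, a factor found from the list itself, and in the other lists with a factor of 1. The scaled summit reads and the background were then divided by the lowest background of the library, taken here as its genome-wide level (1.38, 1.69, 1.19 and 1.45 in WT 1, WT 2, DKO 1 and DKO 2). Over the 204 shared sites solved in all 4 lists, the median of summit reads on this scale was 35.5 and 31.9 in WT and 37.1 and 31.4 in DKO. The genotypes overlapped at most sites, and the median log2 difference was 0.058. At 18 sites both DKO values lay below both WT values, and at 34 above. In the same test as for fold enrichment, 0 of 204 sites were lower and 0 higher (limma), with 2 lower and 6 higher at an unadjusted p under 0.05. This measure was chosen after the data were seen.

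The local background, in contrast, was higher in DKO. Its median was 2.38 and 2.4 times the lowest background in WT and 3.83 and 4.14 times in DKO, and both DKO values lay above both WT values at 152 of 204 sites. The lists of a genotype share 1 input, so this difference has no replicate and no test, and the errors of the fold enrichment tests do not include the spread between inputs. Genotype and input cannot be told apart here. The labels name no other B cell input, so the lists of IKAROS and ETS1 are no separate observation of the background. At sites shared by all 4 lists of each of these factors, the local background was likewise higher in DKO. It was 2.31 and 2.31 in WT and 4.14 and 4.14 in DKO for IKAROS, and 2.56 and 2.75 against 4.28 and 4.28 for ETS1. Summit reads there were 37.4 and 36.9 times the lowest background in WT and 30.8 and 29.9 times in DKO for IKAROS, and 27.5 and 28.3 against 28.6 and 29.5 for ETS1. Across the 204 IRF8 sites the change in fold enrichment had a Pearson r of −0.92 with the change in local background and 0.40 with the change in summit reads, where each pair shares a term by construction. At 75 of the 78 sites that passed as lower both parts were solved, and there the local background was higher in DKO at 75 while summit reads were higher at 41 and lower at 34. The background is the denominator of the ratio that chose these sites, so the count is no separate evidence. At 126 sites that did not pass, the background was higher at 96 and summit reads were higher at 82 and lower at 44. Lyn is an example, with scaled summit reads of 87.6 and 65.6 times the lowest background in WT and 87.7 and 64 times in DKO.

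Between lists, fold enrichment at shared sites had a Pearson r of 0.89 for the WT pair, 0.87 for the DKO pair and 0.61 to 0.63 across genotypes. Summit reads over the lowest background had 0.88 to 0.89 in every pair, within a genotype or across. These are values over sites of the same libraries, given as a description.

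The same values were taken by kind of sequence, as a description. At the 32 shared arrays the median fold enrichment was 13.4 and 11.8 in WT and 12.4 and 10.6 in DKO, and the local background was 1.38 and 1.44 times the lowest in WT and 1.65 and 1.91 times in DKO. At the 91 shared sites with an EICE and no array it was 12.3 and 11.2 in WT and 8.12 and 6.84 in DKO, with a local background of 2.61 and 2.4 in WT and 4.14 and 4.14 in DKO. Of the arrays 4 of 32 (12.5%) passed as lower, and of the EICE sites 40 of 91 (44%). The median log2 difference was −0.11 at arrays, −0.54 at EICE sites and −0.54 at the 92 sites with neither. The array near 2310014L17Rik was 1 of the 4 that passed as lower, with a fold enrichment of 76.7 and 75.5 in WT and 25.6 and 30.1 in DKO (difference −1.45 ± 0.23, limma adjusted p = 0.00111). The others were named by Nuf2 (454054 bp from its start), Apobec4 and Herc1, after their values were seen, with log2 differences of −1.16, −0.75 and −0.77. After each library was centred on its median, none of these others passed (limma adjusted p = 0.077, 0.581 and 0.579), while the array near 2310014L17Rik did (0.0202). Before centring, the arrays near Mtap4, Trim30c and Speer2 did not pass. No difference between these kinds of site was tested.

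**Figure D4:**
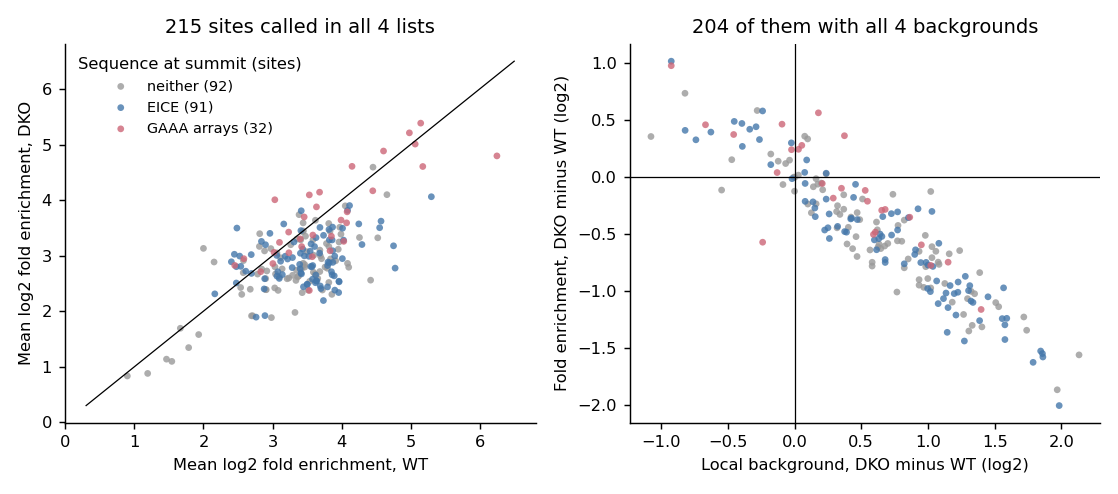
Left, mean log2 fold enrichment of the 215 shared IRF8 sites in DKO (y axis) against WT (x axis), with the line of equal values. Right, log2 difference of fold enrichment (y axis) against that of the local background (x axis), DKO minus WT, at 204 of them. Points are sites, red for GAAA arrays (32), blue for EICE sites (91) and grey for neither (92), and most blue and grey points lie below the line of equal values on the left, while the points on the right fall from upper left to lower right.

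The 4 sites higher in DKO were named after their values were seen. The number of such sites was 34 after centring, 0 with −log10 p, 1 without DKO replicate 1 and 0 without DKO replicate 2. The site near Ctsh, a GAAA array in an intron of Rasgrf1, had fold enrichments of 8.04 and 8.33 in WT and 17.2 and 15 in DKO. The site 65737 bp from Mkl2 had 5.2 and 6.02 in WT and 12.9 and 9.84 in DKO. Samd9l, an interferon-inducible gene, had a site 32 bp from its start with 5.32 and 3.72 in WT and 7.68 and 7.1 in DKO. The last lay 51624 bp from the receptor gene Vmn2r83. At the 3 of them with solved values the local background was lower in DKO.

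Sites in DKO lists alone were few. The strongest, 13647 bp from Ggnbp1, carried the EICE letters GGAAGTGAAA and had fold enrichments of 9.51 and 6.15 in the DKO lists, with 33 and 28 summit reads. The next, in an intron of BC057079, was a GAAA array with 6.75 and 9.68. Others were named by Pabpc4, Sh2b3, Ighv1-73 (119184 bp from its start), Zfp386 and Gm3395 (307064 bp). Sh2b3 encodes the adaptor Lnk, a brake on cytokine signalling, and its site lay 159 bp from the start, where IKAROS and ETS1 were called in both genotypes. The site near Gm3395 lay on chromosome Y at a fold enrichment of 1.63 and 1.59.

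Most IRF8 sites lay away from promoters. A site with any base within 1000 bp of a protein-coding start counted as a promoter site, which held for 40 of 328 WT-only sites (12.2%, exact binomial 95% interval 8.86 to 16.2) and 14 of 215 shared sites (6.51%, 3.61 to 10.7). These intervals cover counting error only, and sites of the same libraries are not replicates. With a distance of 250 bp the shares of WT-only and shared sites were 7.62% and 5.12%, and with 2500 bp 16.5% and 12.6%. Summits lay between genes at 50.6% of WT-only and 56.7% of shared sites and in introns at 43% and 40%. The WT lists held 109 and 112 promoter peaks and the DKO lists 26 and 28. Of distal peaks, the WT lists held 777 and 756 and the DKO lists 344 and 256. The genotypes did not overlap in either. The log2 difference was −1.99 ± 0.08 (SE) at promoters (limma adjusted p = 0.000612), where 50% of the antibodies passed with fewer peaks in DKO, and −1.37 ± 0.18 at distal positions (limma adjusted p = 0.00899), where 62.5% passed so. The distal call was lost without either WT replicate (adjusted p = 0.0669 and 0.0633). The fall at promoters exceeded that at distal positions by 0.63 ± 0.20 on the log2 scale, which did not pass (limma adjusted p = 0.0675, where 25% of the antibodies passed in this direction and 31.2% in the other). It passed with the 5 B cell antibodies alone (limma adjusted p = 0.0338) and without WT replicate 1 (0.00663), WT replicate 2 (0.0105) or DKO replicate 2 (0.0201). It did not pass without DKO replicate 1 (limma adjusted p = 0.073), with peaks of −log10 p of at least 10 (0.108) or fold enrichment of at least 4 (0.0506), or on chromosomes 1 to 19 (0.0667).

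Of the genes in the lists described below, Tlr4, the receptor for lipopolysaccharide, had 1 of the 14 shared promoter sites, and so did Erap1, which trims peptides for MHC class I. The Erap1 site, 14 bp from the start, had fold enrichments of 11.2 and 9.01 in WT and 4.07 and 3.81 in DKO (difference −1.35 ± 0.23, limma adjusted p = 0.00214), and 54 and 52 summit reads in WT and 35 and 51 in DKO. Of the 40 WT-only promoter sites, 6 lay at genes of these lists, namely Gbp3, an interferon-inducible GTPase, Irf5, a relative of IRF8, Tlr9, the receptor for CpG DNA, Ly86, Mpeg1 and Cd2. IKAROS was called in both WT lists at 24 of 40 WT-only promoter sites (60%) and at 93 of 288 distal ones (32.3%), and at 10 of 14 (71.4%) and 56 of 201 (27.9%) of the shared sites. The EICE was found at 37.5% of WT-only promoter sites and 42.7% of distal ones, and at 28.6% and 46.3% of the shared sites.

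ETS1 and IKAROS, the factors with the longest lists, were those most often called at IRF8 sites. Over the whole genome, both WT lists called 3293 sites of ETS1 and 7730 of IKAROS, against 151 of PAX5 and 48 of OCT2. The counts below were not matched for this difference, so they do not rank the factors as partners of IRF8. ETS1 is an ETS family factor, IKAROS and PAX5 are lymphoid regulators, and OCT2 binds the octamer. Their peaks were overlapped with IRF8 sites at 1 bp or more. ETS1 was called in both of its WT lists at 161 WT-only sites (49.1%) and 107 shared sites (49.8%). IKAROS was called at 117 (35.7%) and 66 (30.7%), PAX5 at 17 (5.18%) and 22 (10.2%), and OCT2 at 5 (1.52%) and 6 (2.79%). At least 1 of the 4 was called at 207 WT-only (63.1%) and 123 shared sites (57.2%). With the IRF8 summit itself required inside the other peak, ETS1 stood at 47.6% and 48.4% and IKAROS at 14.9% and 14.4%, so that IKAROS peaks more often only touched the site.

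Both classes of IRF8 site had fewer of these peaks in DKO. ETS1 was called at WT-only sites in 56.1% and 56.1% of cases in its WT lists and in 20.1% and 19.8% in its DKO lists, and at shared sites in 54.4% and 55.3% and in 28.8% and 27.9%. IKAROS was called at WT-only sites in 40.9% and 46.6% in WT and in 10.7% and 10.7% in DKO, and at shared sites in 33% and 41.4% and in 16.7% and 14.4%. No value of a DKO list reached that of a WT list in either class. Of the WT-only sites with IKAROS in both WT lists, 65% had it in no DKO list, against 45.5% of the shared ones and 41.8% of all sites of both IKAROS WT lists. For ETS1 the shares were 52.2%, 38.3% and 60%, and for PAX5 88.2%, 54.5% and 77.5%. OCT2 was in no DKO list at 4 of 5 WT-only sites (80%) and 1 of 6 shared sites (16.7%), against 68.8% of all sites of both OCT2 WT lists. Sites shared by all 4 IRF8 lists had the other factor in a DKO list more often, and that difference was not tested.

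**Figure D5:**
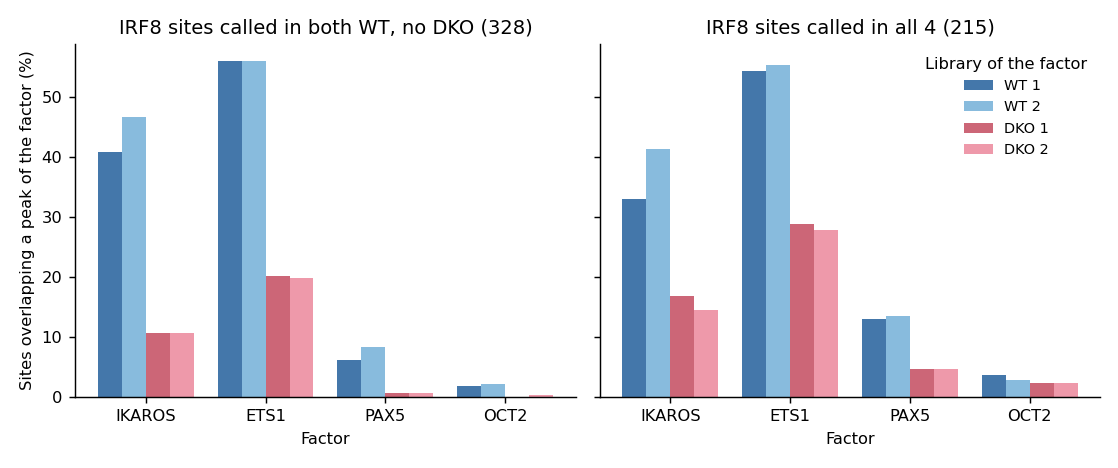
Share of IRF8 sites (y axis, %) that overlap a peak of IKAROS, ETS1, PAX5 or OCT2 in each library of that factor, at the 328 WT-only sites (left) and the 215 shared sites (right). Bars are single libraries, WT in blue and DKO in red, and ETS1 in WT stands at 54.4% to 56.1% in both panels.

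The share of WT-only sites was compared with and without a partner over the 3 middle groups of strength in WT, as a description with no test. Strength was not matched within these groups, across which the WT-only share itself fell from 69.6% to 34.1%. Sites with a factor in 1 of its WT lists were left out. Of 118 sites with IKAROS in both WT lists, 61.9% were WT-only, against 49.8% of 227 sites with it in neither. For ETS1 the shares were 57.5% of 186 and 48.8% of 170. They were 51.4% of 185 sites with an EICE and 55.9% of 220 without, and 55.6% of 45 promoter and 53.6% of 360 distal sites. ETS1 was nearly absent from GAAA arrays, at 1 of 32 shared arrays against 54 of 91 shared EICE sites (59.3%), and IKAROS was called at 0 of 32 arrays and at 34 of 91 EICE sites (37.4%).

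Genes of B cell biology were looked up in 12 lists of 197 genes, of which 196 were found in the annotation. A gene counted where a site lay in its body or within 5000 bp. Of 22367 protein-coding genes 1.04% had a WT-only site, 0.55% a shared site, 0.0179% a site of both DKO lists alone and 3.25% any IRF8 site. Long genes can hold more sites, and gene length was not matched. Of 26 B cell transcription factors, 3 had a shared site, 1 a WT-only site and 8 any site. Pax5, the factor of B cell identity, had an intronic shared site with 15.4 and 13.9 in WT and 14.1 and 9.25 in DKO, which did not pass the test (limma adjusted p = 0.274). Pou2f2, the gene of OCT2, had one with 9.84 and 11.8 in WT and 5.26 and 4.83 in DKO (difference −1.10 ± 0.23, limma adjusted p = 0.00359, and 0.108 after each library was centred on its median). Bach2, a repressor that holds back plasma cell fate, had one with 8.11 and 5.67 in WT and 4.48 and 3.08 in DKO (difference −0.87 ± 0.27, limma adjusted p = 0.0238, and 0.369 after centring). Ebf1, an early B cell factor, had a WT-only site with 5.55 and 5.92. The Ets1 gene had an intronic site in both WT lists and DKO replicate 2, with 11.9, 8.19 and 5.27.

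Of 24 genes of B cell receptor signalling, 2 had a WT-only site (Pik3ap1 and Bank1), 1 a shared site (Lyn) and 6 any site. Bank1 encodes a scaffold that binds Lyn, and its intronic site had 8.43 and 9.26 in WT. Inpp5d, the phosphatase SHIP1 that limits PI3-kinase signalling, had a site in both WT lists and DKO replicate 1, with 4.98, 4.84 and 5.43. Of 17 genes of Toll-like receptor signalling 4 had any site, of which Tlr4 had 2 shared sites, and Ly86 and Tlr9 had WT-only sites. Ly86 encodes MD-1, the partner of the receptor RP105. The promoter site of Tlr4 had 11.6 and 9.35 in WT and 5.88 and 6.54 in DKO (limma adjusted p = 0.0238, and 0.598 after centring).

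Of 28 interferon response genes, 2 had WT-only sites, Gbp3 with 7.24 and 8.29 and Irf5 with 6.89 and 5.08, none had a shared site and 5 had any site. These counts hold for the listed genes only. Samd9l, described above as interferon-inducible, was outside the list and had a shared site 32 bp from its start. Of 12 genes of MHC class I and the immunoproteasome, 5 had any site. Erap1 had a shared site, and Tap1 and Psmb8, a peptide transporter and a proteasome subunit, had 1 site between them in both WT lists and DKO replicate 2, with 8.24, 9.35 and 3.37. Of 14 genes of MHC class II, 3 had any site (21.4%), and these were neither WT-only nor shared. Of 12 survival genes 3 had any site. Among them Bcl2, which protects from apoptosis, had a shared site with 10.1 and 11 in WT and 8.13 and 8.35 in DKO that did not pass the test (limma adjusted p = 0.212), and Casp8 and Tnfrsf13c, the BAFF receptor gene, had sites in both WT lists and DKO replicate 1. Cxcr4, a homing receptor, was the 1 of 12 homing genes with a site in both WT lists, where 2 had any site, and Cd38 the 1 of 10 germinal centre and plasma cell genes with a WT-only site, where 2 had any. Of 16 myeloid markers Mpeg1 had 2 WT-only sites and Mrc1 a shared site, of 15 T cell markers Cd2 had 2 WT-only sites, and none of 10 erythroid and megakaryocyte markers had any.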

How the data were processed

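ChIP-seq peak lists of IRF8 in resting B cells were analysed, 2 WT and 2 DKO libraries, with the lists of 15 other antibodies as background. The authors trimmed reads with CutAdapt 1.16, mapped them to mm9 with BWA 07.17, marked duplicates, removed blacklisted regions and called peaks per library with MACS2 2.1.1.20160309. Read depth is not given in the lists. The deposited fold enrichment is the ratio of summit pileup to local background computed by the authors with MACS2, and each summit carries the −log10 p-value and −log10 q-value that the authors' caller assigned, as deposited.

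A site took the peak of lowest p in each library. Log2(peak number + 1) was tested with limma 3.58.1 in R 4.3.3 over 16 antibodies, and log2 fold enrichment over 215 sites, without a replicate block, both with Benjamini-Hochberg adjustment at 0.05. The lists hold no reads over regions, so differential binding on counts was not tested. Summit reads and background were solved from fold enrichment and −log10 p, with whole reads accepted within 0.003. Genes came from GENCODE vM1. Sequences came from the mm9 (NCBIM37) genome through pysam 0.24.0. Python 3.11.15, numpy 2.4.6, pandas 2.3.3, scipy 1.17.1 and matplotlib 3.10.9 were used, and the steps were tested on simulated data.

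Named sites were the 10 WT-only, 10 shared and 5 DKO-only sites with the highest mean −log10 q, called by the closest protein-coding start, up to 4 genes per list with the strongest shared and WT-only sites, and Irf8, Hmgn1 and Hmgn2. Genes of the lists with a site in both WT lists and 1 DKO list, and the last 2 DKO-only sites, were named beside that rule after their values were seen. The sites, lists and genes were chosen with earlier results of these data known. The symbols Spi1 and Syk were matched through RefSeq synonyms, and 1 listed gene was not found. A B cell marker fixed in the design is not reported here. Alternatives were stricter peak thresholds, other joins, windows and scalings, a replicate block, and each replicate left out in turn.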

Additional observations from a re-analysis of the deposited data

How the results depend on the processing

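The number of peaks was lower in DKO under every alternative tried, with a log2 difference between −1.62 and −1.24 when 1 replicate was left out, between −1.58 and −1.15 at distal positions and between −2.05 and −1.94 at promoters. Without WT replicate 1 or 2 the adjusted p was above 0.05 for all and for distal peaks. The promoter fall beyond the distal fall was −0.63, and between −0.89 and −0.36 with 1 replicate left out. It passed with the replicate block (−0.63, adjusted p = 0.0105) and with the 5 B cell antibodies only (−0.63, adjusted p = 0.0338), both by limma. The labels name no animal or batch shared by same-numbered libraries, whose deviations at shared sites had a correlation of −0.02. That correlation cannot show a shift common to all sites of a library. The replicate block gave 94 shared sites lower and 6 higher and changed no other call. Of shared sites, 18 were lower after centring, 27 with −log10 p, 0 with summit reads over the lowest background, and 0 to 67 with 1 replicate left out (47 without WT replicate 1, 0 without DKO replicate 2). The median log2 difference was 0.10 after centring and 0.058 with summit reads. WT-only sites numbered 371 to 516 and DKO-only sites 9 to 25 with 1 replicate left out, and 27 and 29 with equal numbers of top peaks. Summit reads, and the exclusion of sites under a fold enrichment of 3, were chosen after the data were seen. Causes of these changes were not tested. With 2 libraries per genotype and 1 input each, the spread between inputs is not measured, and sites below the calling threshold of a list have no value.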
